A study of Homo sapiens with 6 samples.

Results

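The genes described here encode the core machinery of apoptosis: the BCL2 family, caspases with their activators and inhibitors, and the death receptors with their adaptors. They were taken as the rows of the count table whose symbol was on a list of 38 genes, and all 38 had a row among the 28265 rows of the table. RNA was sequenced from Huh7, an established line from a human liver carcinoma, 48 h after lentiviral transduction. The LHX2 group (3 libraries) received a vector that expressed LHX2, a LIM-homeodomain transcription factor, and the control group (3 libraries), which the labels call parental, received a control vector. Whether replicates were separate cultures is not in the labels, so the p-values reflect spread among these libraries and that spread may be technical. The labels name neither the promoter of the vector nor a selection of clones.

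Apoptosis runs along a mitochondrial and a receptor route. In the mitochondrial route BH3-only proteins sense stress and act on the antiapoptotic BCL2 proteins or directly on BAX and BAK1, which then open the outer mitochondrial membrane and release cytochrome c. Cytochrome c and APAF1 form the apoptosome, which activates caspase-9. In the receptor route ligand-bound death receptors recruit FADD and caspase-8, and in hepatocytes the signal usually needs amplification through cleavage of BID at the mitochondria. IAP proteins, CFLAR (also called cFLIP) and decoy receptors hold these steps in check, and hepatocytes depend in particular on MCL1 and on BCL-xL, the long product of BCL2L1.

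With LHX2, both abundant antiapoptotic BCL2 genes, MCL1 and BCL2L1, rose, and XIAP, CFLAR and BIRC3 rose with them, while the decoy receptor gene TNFRSF10D fell. Among proapoptotic genes the BH3-only genes BMF and BCL2L11 and the apoptosome gene APAF1 rose, whereas BID, CYCS, CASP8, CASP10 and FADD fell. CASP4, an inflammatory caspase, had the second largest rise after BIRC3. Most of these changes were under 1.5-fold, and no member passed when edgeR glmTreat tested for more than a 1.5-fold change (adjusted p under 0.05). The calls of CASP8, CFLAR, XIAP, FADD, CASP10 and TNFRSF10D were also lost when some settings were changed or a library was left out. BIRC3 rested on 14 to 45 counts per library. Of all genes tested, 32.5% were called.

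The libraries held 30029313 to 39653681 counts. LHX2 had 2535, 2427 and 3126 counts in the LHX2 libraries and 1, 2 and 1 in the control libraries, in the direction of the labels. Of 9 markers of hepatocytes and liver tumours, 2 rose, 4 fell and 3 did not pass. These are shares of 22.2% higher and 44.4% lower, against 16.6% and 15.8% of all genes tested. AHSG (log2 fold change -1.17), FGG (-0.71), FGA (-0.70) and HNF4A (-0.26) fell, and HPX (1.37) and GPC3 (0.25) rose. AFP (-0.10, adjusted p = 0.15) and FGB (-0.10, adjusted p = 0.069) did not pass, although every LHX2 library lay below every control library in both. ALB did not pass either. It averaged 12305 ± 617 CPM, counts scaled to library size, in LHX2 and 12164 ± 325 CPM in control libraries (SD, n = 3 each). The 7 markers of leukocytes, endothelium and fibroblasts summed to 54.5 to 58.5 CPM in LHX2 libraries and 20.6 to 24.1 CPM in control libraries. COL1A2 (log2 fold change 1.99) and CD68 (0.99) rose and PECAM1 (-0.41) fell in that list. The higher sum came mainly from COL1A2 (mean 36.8 CPM in LHX2 and 9.26 in control libraries) and CD68 (16.5 and 8.35). The others were under the filter on low counts. PDGFRB had 1, 1 and 2 counts in LHX2 and 6, 10 and 6 in control libraries. COL1A1 had 8, 10 and 10 in LHX2 and 9, 8 and 4 in control libraries. The defining leukocyte gene PTPRC had 0, 3 and 0 counts in LHX2 and 1, 1 and 0 in control libraries, and ACTA2 had 0, 0 and 1 in LHX2 and 0 in each control library. The part of these genes in the results below was not tested.

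For genes named below, CPM are scaled by TMM factors, and log2 fold changes are LHX2 over control from the edgeR quasi-likelihood test with Benjamini-Hochberg adjustment over all genes tested. Of the 38 members 34 passed the filter on low counts, and each of the 34 lay above the filter level of 0.305 CPM in every library of both groups. Of these 34, 9 rose, 6 fell and 19 did not pass. Over all 14533 genes tested, 32.5% were called, 16.6% higher and 15.8% lower, against 26.5% higher and 17.6% lower among the tested members. The tested members were also more abundant, with a median control level of 40.8 CPM against 20.4 CPM over all genes. The groups did not overlap in 20 of the 34, where 44.9% of all genes tested did not. Their median absolute log2 fold change was 0.18, near the 0.16 of all genes tested.

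The 3 upstream regions below are shown because they belong to the members with the largest rises, CASP4 and BIRC3, and to BCL2L11, whose window held a forkhead-type motif. Each is the 250 bases before the RefSeq start of the gene (GRCh38.p14), 5′ to 3′ on the gene's strand, with the motif match in capitals. CASP4 covers chr11:104968575-104968824 on the minus strand, with TAATTA in capitals. BIRC3 covers chr11:102317234-102317483 on the plus strand, with an NF-kB-type match in capitals. BCL2L11 covers chr2:111120664-111120913 on the plus strand, with GTAAACA in capitals. The BCL2L11 region also holds an NF-kB-type match on the reverse strand, which is left in lower case.
CASP4: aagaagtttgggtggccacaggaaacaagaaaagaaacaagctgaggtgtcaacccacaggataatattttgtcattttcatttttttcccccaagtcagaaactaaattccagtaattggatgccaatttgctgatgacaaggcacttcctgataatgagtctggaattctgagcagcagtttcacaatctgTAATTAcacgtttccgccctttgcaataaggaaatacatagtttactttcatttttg
BIRC3: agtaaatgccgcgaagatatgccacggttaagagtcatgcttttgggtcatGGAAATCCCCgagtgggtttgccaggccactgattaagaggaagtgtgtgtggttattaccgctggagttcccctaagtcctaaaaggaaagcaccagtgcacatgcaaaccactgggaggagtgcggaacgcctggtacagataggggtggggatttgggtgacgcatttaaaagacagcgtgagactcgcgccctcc
BCL2L11: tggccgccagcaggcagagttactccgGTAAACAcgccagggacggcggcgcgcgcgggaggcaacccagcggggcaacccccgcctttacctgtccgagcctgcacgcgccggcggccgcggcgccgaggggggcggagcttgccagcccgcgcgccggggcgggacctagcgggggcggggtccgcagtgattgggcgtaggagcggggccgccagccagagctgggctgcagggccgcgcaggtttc

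TAATTA, which is its own reverse complement, is the core letters that LIM-homeodomain factors bind. It occurred in the windows of 250 bases before and 50 bases after the start of 2 of the 30 members with a window, CASP4 and HRK, and in 3.83% of 18931 windows of genes in the table. In CASP4 its first base lay 57 bases upstream of the start. Of tested genes whose window held TAATTA, 253 in all, 19% were higher and 14.6% lower, against 16.7% and 16.3% of the 11053 genes whose window did not. The other motifs were searched on both strands and chosen after the values were seen. The NF-kB-type motif was in the windows of BOK, BCL2L11, CASP8, BIRC3 and FAS (6.12% of all windows), and the forkhead-type GTAAACA in that of BCL2L11 (2.92%). The AP-1-type TGANTCA was in the windows of BBC3, FAS and FADD (6.66%), the TEAD-type CATTCC in that of BBC3 (12.6%), and TTCCGGGAA, a STAT-type motif, matched 0 member windows (0.454%). A match describes letters only and is not a binding site shown in these cells.

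**Figure D1:**
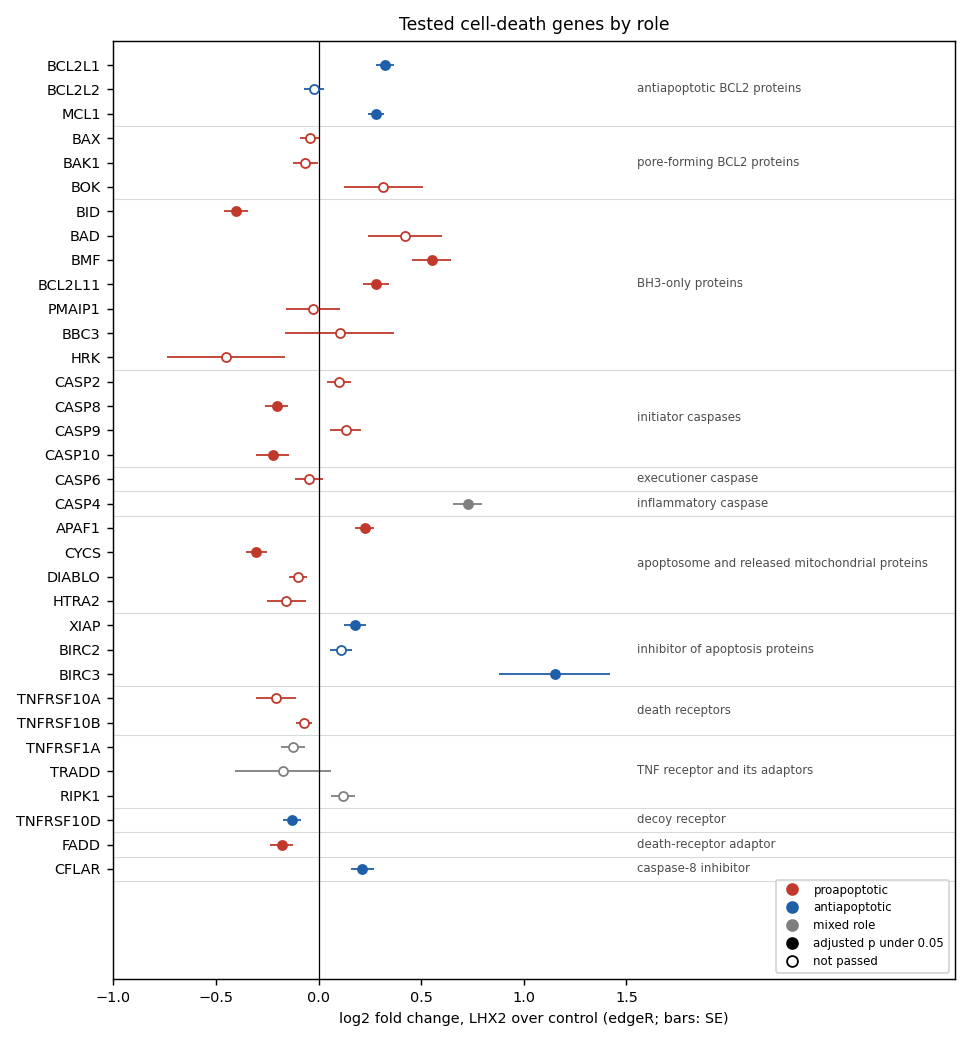
Log2 fold change of each tested member (LHX2 over control, edgeR), grouped by role, with its standard error as a bar. Filled points passed an adjusted p under 0.05; of the 8 antiapoptotic genes (blue) 5 are filled to the right of 0, and of the 22 proapoptotic genes (red) 3 are filled to the right and 5 to the left.

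Antiapoptotic BCL2 proteins bind and restrain BH3-only proteins and the pore formers. MCL1, a short-lived member (chromosome 1, 150574558 to 150579610), had 448, 434 and 420 CPM in LHX2 libraries and 364, 357 and 353 CPM in control libraries. BCL2L1 (chromosome 20, 31664452 to 31723963) had 294, 271 and 268 CPM in LHX2 libraries and 228, 223 and 216 CPM in control libraries. Every LHX2 library lay above every control library for both genes. The log2 fold change was 0.28 ± 0.039 for MCL1 (SE, adjusted p = 6.4e-05) and 0.32 ± 0.043 for BCL2L1 (SE, adjusted p = 4.8e-05). Counts per gene do not separate the long antiapoptotic and the short proapoptotic splice product of BCL2L1, nor the corresponding products of MCL1. The antisense gene ABALON shares 43.0% of the exon bases of BCL2L1 but had 9 to 19 counts in LHX2 and 6 to 15 in control libraries.

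The other antiapoptotic family members did not follow. BCL2L2, which encodes BCL-w, had 57.7 to 61.0 CPM in LHX2 libraries and 56.6 to 63.4 CPM in control libraries, and did not pass (log2 fold change -0.023 ± 0.049, SE, adjusted p = 0.76). BCL2 itself was nearly silent, with 2, 5 and 5 counts in LHX2 libraries and 6, 13 and 6 in control libraries, and it was not tested. BCL2A1, an NF-kB target best known in blood cells, had 0 counts in each library. Measured per exon length, MCL1 (99.4 CPM per kb in LHX2, 82.0 in control libraries) and BCL2L1 (83.8 in LHX2, 67.1 in control libraries) were the highest of the group. Together they made up 92.8% of the summed level per kb of the 5 genes in LHX2 and 91.2% in control libraries.

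The pore-forming genes did not pass. BAX, the most abundant of them, had 64.9, 59.0 and 63.6 CPM in LHX2 libraries and 66.7, 61.7 and 64.9 CPM in control libraries, which overlap (log2 fold change -0.042 ± 0.049, SE, adjusted p = 0.55). BAK1 had 32.6 to 34.3 CPM in LHX2 and 32.2 to 37.1 CPM in control libraries (-0.065, adjusted p = 0.45). BOK, a relative that is regulated by its degradation, was low, with 57, 60 and 73 counts in LHX2 and 59, 69 and 37 in control libraries (0.32 ± 0.19, SE, adjusted p = 0.24).

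**Figure D2:**
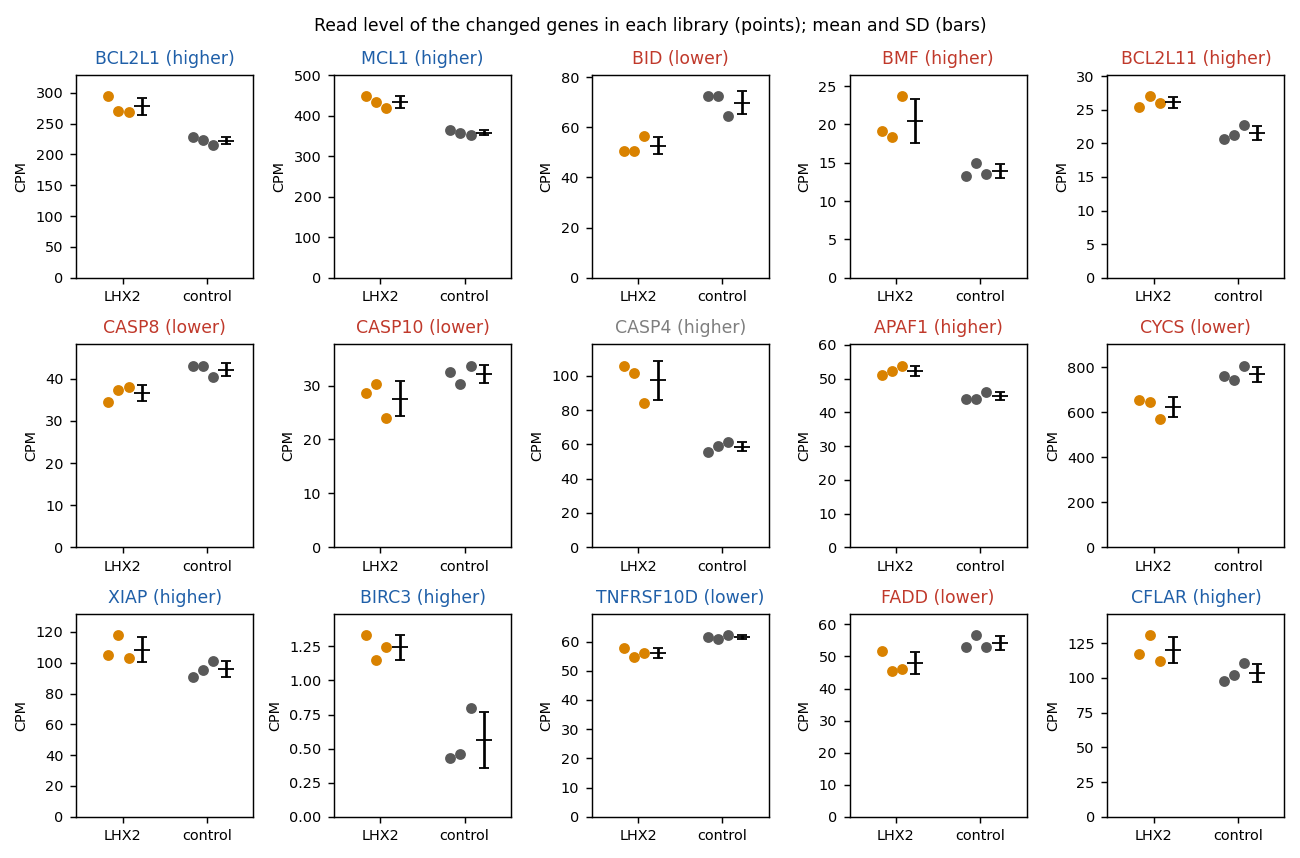
CPM of the 15 members that passed, in each of the 3 LHX2 libraries (left) and 3 control libraries (right), with the mean and SD as a bar; axes start at 0, and title colours are blue for antiapoptotic, red for proapoptotic and grey for mixed role. The groups overlap for none of the 15 genes, but for CASP10 the highest LHX2 library, 30.2 CPM, almost reaches the lowest control library, 30.4 CPM.

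BH3-only genes moved in both directions. BMF, which binds antiapoptotic family members when released from the cytoskeleton (chromosome 15, 40087890 to 40108879), had 19.2, 18.3 and 23.7 CPM in LHX2 libraries and 13.3, 14.9 and 13.6 CPM in control libraries. Every LHX2 library was above the control range, with replicate 3 the highest, and the log2 fold change was 0.55 ± 0.095 (SE, adjusted p = 0.00044). BCL2L11, which encodes BIM, a binder of all antiapoptotic family members, had 25.4, 27 and 25.9 CPM in LHX2 libraries and 20.6, 21.2 and 22.7 CPM in control libraries. These groups did not overlap either (0.28 ± 0.064, SE, adjusted p = 0.0035). On the opposite strand MIR4435-2HG shares 10.9% of the exon bases of BCL2L11, with 1045 to 1198 counts in LHX2 and 1010 to 1239 in control libraries. Reads of this pair may be mixed if strand was not used in counting. BID, the caspase-8 substrate that carries receptor signals to the mitochondria (chromosome 22, 17734138 to 17774665), had 50.7, 50.7 and 56.7 CPM in LHX2 libraries and 72.4, 72.4 and 64.4 CPM in control libraries. All LHX2 libraries were below the control range, and BID fell by 0.40 on the log2 scale (SE 0.058, adjusted p = 8.6e-05). It was the largest fall among the members that passed.

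The remaining BH3-only genes were low and did not pass or were not tested. BAD, which survival kinases inactivate by phosphorylation, had 5.22, 5.51 and 7.35 CPM in LHX2 and 5.62, 4.82 and 3.11 CPM in control libraries (log2 fold change 0.42 ± 0.18, SE, adjusted p = 0.09). Its groups overlapped, and its value was 0.24 (adjusted p = 0.33) without LHX2 replicate 3 and 0.22 (adjusted p = 0.30) without control replicate 3. It passed without control replicate 1 (0.60, adjusted p = 0.038), with no filter (0.42, adjusted p = 0.014) and once a dependence on length and GC was taken out (0.42, adjusted p = 0.025). GPR137, on the opposite strand, shares 23.7% of the exon bases of BAD and had 159, 129 and 209 counts in LHX2 and 168, 185 and 130 in control libraries, so reads of the pair may be mixed if strand was not used in counting. PMAIP1 and BBC3, which encode the p53 targets NOXA and PUMA, had log2 fold changes of -0.026 ± 0.13 and 0.10 ± 0.27 (SE). HRK, a gene best known in neurons, had 14 to 21 counts in LHX2 and 24 to 32 in control libraries (-0.45 ± 0.29, SE, adjusted p = 0.26). Scaled to library size its groups overlapped, at 0.459 to 0.699 CPM in LHX2 and 0.638 to 0.985 CPM in control libraries. BIK, the least abundant by counts, had 0, 3 and 7 counts in LHX2 and 5, 9 and 1 in control libraries.

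Summed per exon length, the 5 antiapoptotic family genes held 205, 196 and 191 CPM per kb in LHX2 libraries and 166, 164 and 161 CPM per kb in control libraries. The 11 proapoptotic family genes held 64.8, 63.4 and 68.8 CPM per kb in LHX2 libraries and 71.1, 68.6 and 64.6 CPM per kb in control libraries. The antiapoptotic sums did not overlap between the groups and the proapoptotic sums did. The ratio of the sums was 3.01 ± 0.209 in LHX2 and 2.40 ± 0.0845 in control libraries (SD, n = 3 each), and it is a description without a test. It rests on MCL1 and BCL2L1 above and on BAX, BAK1 and BID below, and is a ratio of RNA levels, not of proteins.

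**Figure D3:**
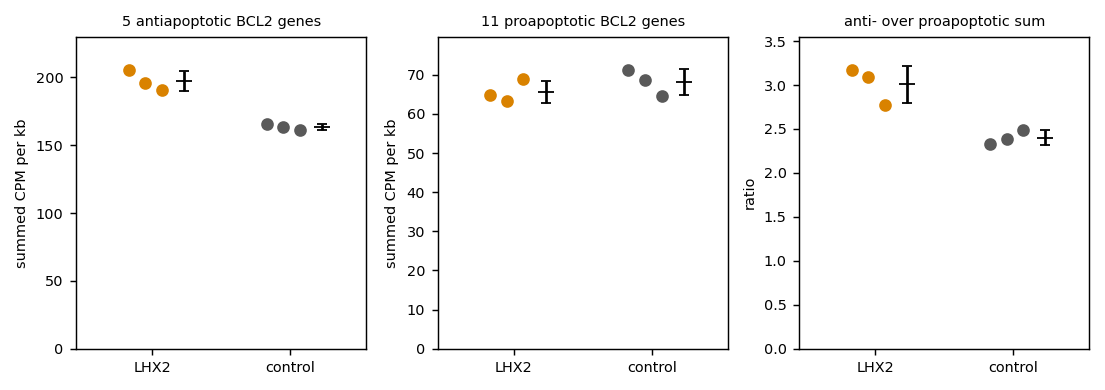
Summed CPM per kb of exon of the 5 antiapoptotic and the 11 proapoptotic BCL2-family genes and the ratio of the sums, for 3 LHX2 libraries (left) and 3 control libraries (right), with mean and SD. The ratio is 2.77 to 3.17 in LHX2 and 2.33 to 2.49 in control libraries.

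Of the 4 initiator caspase genes, CASP8 and CASP10 fell and CASP9 and CASP2 did not pass. CASP8, the caspase of death receptors, had 34.4, 37.4 and 38 CPM in LHX2 libraries and 43.1, 43.1 and 40.5 CPM in control libraries, with a log2 fold change of -0.21 ± 0.054 (SE, adjusted p = 0.0089). It lost the call without control replicate 2 (-0.19, adjusted p = 0.052). CASP10, its neighbour and paralogue, had 28.6, 30.2 and 23.9 CPM in LHX2 libraries and 32.6, 30.4 and 33.7 CPM in control libraries. LHX2 replicate 3 was the lowest, and CASP10 fell by 0.22 on the log2 scale (SE 0.079, adjusted p = 0.041). Without LHX2 replicate 3 it was at -0.13 (adjusted p = 0.16), and it also missed the threshold without control replicate 1 (adjusted p = 0.11) or 3 (adjusted p = 0.10) and with library totals alone (adjusted p = 0.065).

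CASP9, the caspase of the apoptosome, and CASP2, which responds to DNA damage through the PIDDosome, did not pass. CASP9 had 16.9 to 19.9 CPM in LHX2 and 16 to 17 CPM in control libraries (0.13 ± 0.077, SE, adjusted p = 0.21). CASP2, the most abundant initiator by reads, had 66.1 to 78.8 CPM in LHX2 and 64.4 to 68.5 CPM in control libraries (0.10 ± 0.058, SE, adjusted p = 0.21), with values of 0.019 (adjusted p = 0.81) without LHX2 replicate 1 and 0.15 (adjusted p = 0.043) without LHX2 replicate 3. CASP6, an executioner caspase, had 34.8 to 42.5 CPM in LHX2 and 37.2 to 41.8 CPM in control libraries (-0.047 ± 0.069, SE, adjusted p = 0.65).

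CASP4 encodes a caspase that senses cytosolic lipopolysaccharide and cleaves gasdermin D in pyroptosis, so it was kept apart from both sides (chromosome 11, 104942866 to 104968574). It had 106, 102 and 84.4 CPM in LHX2 libraries and 55.9, 58.9 and 61.5 CPM in control libraries. The groups lay far apart, although LHX2 replicate 3 was lower than the other LHX2 libraries, and the log2 fold change was 0.73 ± 0.070 (SE, adjusted p = 1.8e-06). Its relatives on the list of other caspases were close to silent: CASP5 had 0 or 1 counts in LHX2 and 0 to 2 in control libraries, and CASP1 had 0 counts in each LHX2 library and 2, 5 and 6 in control libraries. The CASP4 region printed above holds TAATTA, and whether LHX2 binds there was not measured.

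In the apoptosome group one gene rose and one fell. APAF1, the scaffold of the apoptosome, had 51.0, 52.2 and 53.8 CPM in LHX2 libraries and 44.1, 44.1 and 46.2 CPM in control libraries (0.22 ± 0.046, SE, adjusted p = 0.0017). CYCS, which encodes cytochrome c and serves respiration in living cells, had 654, 646 and 571 CPM in LHX2 libraries and 761, 742 and 806 CPM in control libraries. It was the most abundant member, at 140 CPM per kb in LHX2 and 173 in control libraries, and it fell by 0.30 on the log2 scale (SE 0.052, adjusted p = 0.00043). CYCS has many processed pseudogenes, so shared reads leave its value uncertain. DIABLO and HTRA2, mitochondrial proteins that antagonise IAPs after release, did not pass (-0.10 ± 0.045 and -0.16 ± 0.096, SE, adjusted p = 0.1 and 0.24). AUP1 and LOXL3 on the opposite strand share 36.9% of the exon bases of HTRA2, and AUP1 had 2104 to 2801 counts in LHX2 and 2227 to 2865 in control libraries.

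Inhibitor of apoptosis proteins bind caspases or ubiquitinate signalling complexes. XIAP, the direct inhibitor of caspases, had 105, 118 and 103 CPM in LHX2 libraries and 90.9, 95.6 and 101 CPM in control libraries. The gap between the groups was narrow (0.18 ± 0.054, SE, adjusted p = 0.02), and the call was lost without LHX2 replicate 2 (0.12, adjusted p = 0.096), control replicate 1 (0.14, adjusted p = 0.11) or control replicate 2 (0.18, adjusted p = 0.07). XIAP was at 0.11 (adjusted p = 0.042) once the dependence on length and GC was taken out. BIRC3, which encodes cIAP2, an NF-kB target that ubiquitinates RIPK1 (chromosome 11, 102317484 to 102339403), had 1.33, 1.15 and 1.25 CPM in LHX2 libraries and 0.43, 0.459 and 0.801 CPM in control libraries. The groups did not overlap, and its log2 fold change of 1.15 ± 0.27 (SE, adjusted p = 0.0043) was the largest among the members but rests on 14 to 45 counts per library. BIRC2, the neighbouring gene for cIAP1, was far more abundant, at 13.9 CPM per kb in LHX2 and 12.9 in control libraries against 0.165 and 0.0749 for BIRC3. It did not pass (0.11 ± 0.054, SE, adjusted p = 0.14), so the rise of BIRC3 was small beside the level of its paralogue.

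Death receptors were represented by the TRAIL receptors. TNFRSF10B, which encodes DR5, had 96.7, 97.7 and 99.6 CPM in LHX2 libraries and 102, 104 and 103 CPM in control libraries. The groups did not overlap, but the difference was small and did not pass (-0.071 ± 0.038, SE, adjusted p = 0.17). TNFRSF10A, which encodes DR4, had 8.93 to 9.52 CPM in LHX2 and 9.06 to 11.5 CPM in control libraries (-0.21 ± 0.099, SE, adjusted p = 0.13), with values of -0.31 (adjusted p = 0.028) without control replicate 1 and -0.14 (adjusted p = 0.41) without control replicate 2. FAS had 1 count in every library of both groups, which is below what could be tested, and its ligand gene FASLG had 0 counts in each. TNFRSF10D, a decoy receptor that binds TRAIL without a complete death domain, had 58.0, 54.7 and 55.9 CPM in LHX2 libraries and 61.5, 60.8 and 62.1 CPM in control libraries. It fell by 0.13 on the log2 scale (SE 0.043, adjusted p = 0.031) and was the antiapoptotic member that went down. This call held in 8 of 16 alternatives and in 1 of 6 with a library left out, at adjusted p-values of 0.061 to 0.09 without any other library than LHX2 replicate 1. TRAIL receptors have similar sequences, so reads may be shared among them.

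Downstream of the receptors, FADD, the adaptor that brings caspase-8 to them, had 51.8, 45.6 and 46.1 CPM in LHX2 libraries and 53, 56.6 and 52.9 CPM in control libraries (-0.18 ± 0.055, SE, adjusted p = 0.021). LHX2 replicate 1 lay close to the control range, and the call was lost without LHX2 replicate 2 (adjusted p = 0.081), LHX2 replicate 3 (adjusted p = 0.062) or control replicate 2 (adjusted p = 0.12). CFLAR, a catalytically inactive relative of caspase-8 that limits its activation, had 117, 131 and 112 CPM in LHX2 libraries and 97.8, 102 and 111 CPM in control libraries. It rose by 0.21 on the log2 scale (SE 0.057, adjusted p = 0.0097), but was at 0.17 (adjusted p = 0.061) without control replicate 1 and at 0.088 (adjusted p = 0.093) once the dependence on length and GC was taken out. Its annotated exons sum to 22529 bases, more than those of any other member.

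CFLAR, CASP10 and CASP8 lie side by side on chromosome 2, from 201116164 to 201176687, from 201183141 to 201229406 and from 201233463 to 201287711, all on the plus strand. Within this cluster CFLAR rose and the caspase genes fell. The TNF receptor gene TNFRSF1A and its adaptors TRADD and RIPK1, which lead to survival or death depending on the complex they form, did not pass. TNFRSF1A had 27.3 to 29.2 CPM in LHX2 and 29.3 to 32 CPM in control libraries (-0.13 ± 0.059, SE, adjusted p = 0.12), and RIPK1 had 27.7 to 28.6 CPM in LHX2 and 25.5 to 26.5 CPM in control libraries (0.12 ± 0.057, SE, adjusted p = 0.13). These groups did not overlap in either gene. TRADD, the least abundant of the group, had 47 to 64 counts in LHX2 and 41 to 95 in control libraries (-0.18 ± 0.23, SE, adjusted p = 0.61).

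**Figure D4:**
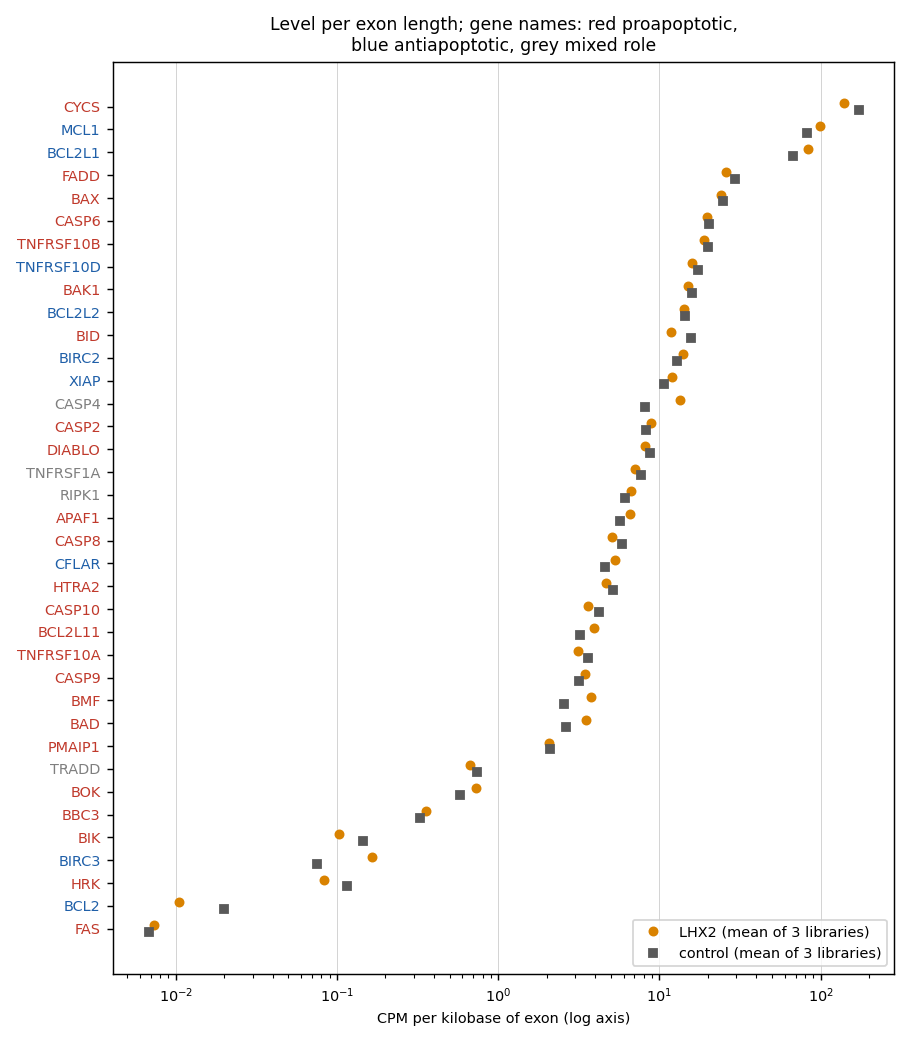
Mean level of 37 members in CPM per kb of exon on a log axis, in LHX2 (circles) and control libraries (squares), ordered by level; BCL2A1 had 0 counts and is left out. CYCS, MCL1 and BCL2L1 are at the top, BCL2 and FAS at the bottom, and the distance between groups is small beside the distance between genes.

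Set by side, 5 of 8 tested antiapoptotic members rose and 1 fell, while 3 of 22 tested proapoptotic members rose and 5 fell. Over all genes tested 16.6% were higher and 15.8% lower. The median log2 fold change was 0.20 for the antiapoptotic and -0.056 for the proapoptotic members, against 0.011 for all genes tested. The antiapoptotic median was 0.12 once the dependence on length and GC was taken out, and the proapoptotic median was -0.028 with library totals alone. The antiapoptotic members were more abundant, with a median of 78.7 CPM in control libraries against 33.6 CPM for the proapoptotic members, and the difference between the sides was not tested. Within the 22 proapoptotic members 8 had a positive and 14 a negative log2 fold change. Without control replicate 1 the antiapoptotic genes that rose numbered 3, and without LHX2 replicate 3 or control replicate 2 the proapoptotic genes that fell numbered 3.

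Count ratios of an inhibitor to a protein it restrains or is restrained by were compared per library, for pairs chosen after the values were seen. BCL2L1 over BAX was 4.53, 4.60 and 4.22 in LHX2 libraries and 3.42, 3.62 and 3.33 in control libraries. CFLAR over CASP8 was 3.41, 3.5 and 2.96 in LHX2 libraries and 2.27, 2.37 and 2.73 in control libraries. XIAP over DIABLO was 1.84, 2.18 and 1.92 in LHX2 libraries and 1.57, 1.63 and 1.69 in control libraries. The groups did not overlap in these pairs. For CFLAR over CASP8 and XIAP over DIABLO this was fixed by the single genes, whose groups already lay apart in opposite directions. BCL2L1 over BAX restates the rise of BCL2L1 beside BAX, which did not pass. These ratios therefore add no support beyond the values of the single genes. MCL1 over BCL2L11, both of which rose, was 17.7, 16.1 and 16.2 in LHX2 libraries and 17.7, 16.9 and 15.6 in control libraries, and these overlapped. With 3 libraries a group an exact two-sided permutation test cannot go below p = 0.10, and none was run.

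Members were also grouped by regulators known from other work. Of members that NF-kB induces, BIRC3, CFLAR and BCL2L1 rose, BIRC2 did not pass, and FAS and BCL2A1 were not tested. That is 75% higher on only 4 tested genes, against 16.6% of all genes tested, and the share covers these members alone. In the other pathway lists described below, NFKBIA (0.072, adjusted p = 0.47), NFKBIE (0.048, adjusted p = 0.84) and RELB (0.31, adjusted p = 0.21) did not pass. Neither did TNFAIP3 (0.09, adjusted p = 0.54) or TRAF1 (-0.43, adjusted p = 0.22), while REL (0.30) and NFKB2 (0.20) rose. Of members that p53 induces, APAF1 rose, BID fell, BAX, BBC3, PMAIP1 and TNFRSF10B did not pass, and FAS was not tested. Of members that ERK signalling regulates, the pathway named in the series title, BMF, BCL2L11 and MCL1 rose, BAD did not pass and BIK was not tested. Of tested members, 75% of 4 were higher for ERK and 16.7% of 6 for p53, against 16.6% of all genes tested. As background, ERK is known to lower BIM and BMF and to stabilise the MCL1 protein. Its list therefore mixes opposite directions and protein effects, and the share of higher RNAs in it has no single reading for ERK. Neither ERK activity nor protein was measured here. Whether NF-kB, p53 or ERK had a part in these changes was not tested, and the groups were chosen with earlier results known.

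Other genes of the pathway, 83 in 5 lists, were read from the same test. Of 70 tested 10 rose, 12 fell and 48 did not pass, shares of 14.3% and 17.1% that lie near those of all genes. Among ligands and further TNF-family receptors, TNFRSF11B, which encodes osteoprotegerin, a soluble decoy for TRAIL and RANKL, fell by 1.19 on the log2 scale (SE 0.092, adjusted p = 1.7e-07), with 6.62 ± 0.783 CPM in LHX2 and 15.1 ± 0.0802 CPM in control libraries (SD, n = 3 each). TNFRSF12A, the TWEAK receptor gene, rose (0.54), as did TNFSF10, which encodes TRAIL (0.30), and 1 of the 4 tested genes of that list did not pass.

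Of 18 tested genes in the list of further BCL2-family and mitochondrial genes 3 rose, 4 fell and 11 did not pass. BCL2L14 (log2 fold change 0.81) and the mitophagy receptor gene BNIP3L (0.38) rose, and AIFM1, which encodes apoptosis-inducing factor (-0.44), and the mitochondrial nuclease gene ENDOG (-0.42) fell. Of 13 further caspases, IAPs and caspase substrates, NAIP rose (0.39) and 12 did not pass. NAIP lies in a duplicated region, so its reads may be shared with copies.

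In the list of TNF signalling and necroptosis 2 of 23 rose, 5 fell and 16 did not pass. TAB2 (0.32) and TRAF3 (0.27) rose and TNIP2, which encodes an A20-binding inhibitor of NF-kB, fell (-0.23). MLKL, the effector of necroptosis, had 3, 11 and 10 counts in LHX2 libraries and 21, 31 and 19 in control libraries (-1.44 ± 0.38, SE, adjusted p = 0.0092). Its LHX2 libraries, at 0.0998, 0.361 and 0.277 CPM, lay in part under the filter level of 0.305 CPM. It was tested only because all control libraries lay above that level, so this call is no firm evidence of a fall. RIPK3, the kinase that activates MLKL, had 0 counts in each LHX2 library and 0, 0 and 1 in control libraries. Of 12 NF-kB subunits and inhibitors REL (0.30) and NFKB2 (0.20) rose, NFKBIB (-0.32) and CHUK (-0.22) fell and 8 did not pass.

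**Figure D5:**
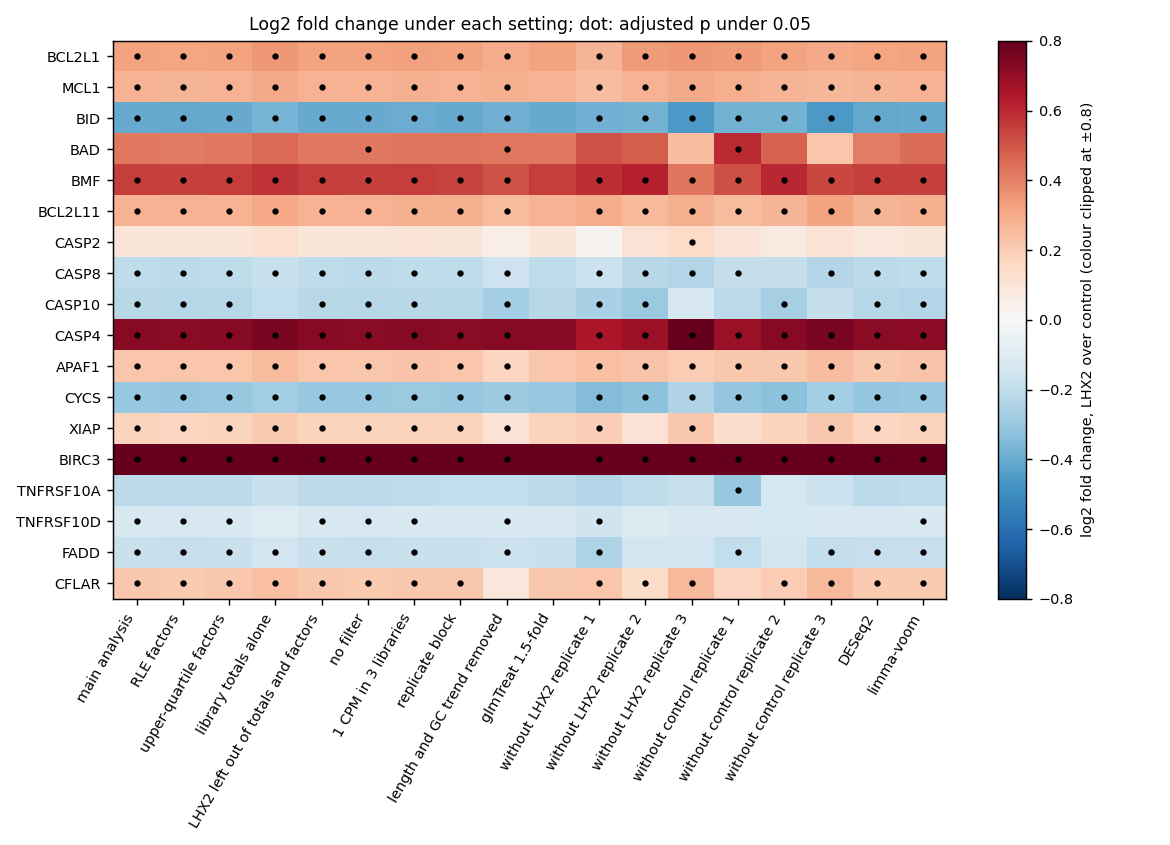
Log2 fold change (colour) of the 15 members that passed and of 3 that passed in some alternative, under the main analysis and 17 alternatives; a dot marks an adjusted p under 0.05. Of the 15 genes, 9 keep a dot under each alternative except the test against a 1.5-fold change, and none of the 15 changes colour.

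The 15 calls differed in how firmly they held. BCL2L1, MCL1, BID, BMF, BCL2L11, CASP4, APAF1, CYCS and BIRC3 passed in all 16 alternatives other than the test against a 1.5-fold change, with every library left out in turn among them. CASP8 passed in 15 of these, CFLAR in 14, XIAP in 13, FADD in 12, CASP10 in 11 and TNFRSF10D in 8. The sign of the log2 fold change was the same in all 16 for each of the 15 genes. In bulk RNA a change per cell and a change in the share of cells cannot be told apart, and these values are RNA levels, so they do not measure protein, caspase activity or cell death.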

How the data were processed

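The deposited table gave whole-number counts per gene, without normalization, for 6 libraries. Per the labels' protocols, the kit was a stranded one for mRNA. Per the submitters' processing notes, tools named by the authors were featureCounts 2.0.0, TopHat2 2.1.1, SAMtools 1.9, Bowtie2 2.3.5.1, FastQC and bcl2fastq 2.20, and the build was GRCh38/hg38. The gene annotation and strand setting were not given in the sources used here. A single control column, spelled unlike the others, was assigned to control replicate 1 from its final digit.

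The edgeR function filterByExpr, set to a minimum of 10 counts per library and 15 in total, left 14533 of 28265 genes. TMM factors lay between 0.985 and 1.02. The main comparison was the quasi-likelihood F-test of edgeR, with group alone in the model and a Benjamini-Hochberg threshold of 0.05, and standard errors were derived from the F statistic. Libraries of one group differed by more than counting noise (chi-square per gene 2.43 to 9.02). On simulated data with 14378 genes tested, the test recovered 22 of 50 genes set at 1.2-fold, 35 of 49 at 1.5-fold and 44 of 49 at 2-fold, and it called 9 of 14182 left as they were. The simulation changed a far smaller share of genes than the 32.5% called in the data. Its rates therefore need not hold for the main comparison.

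Levels per kb used the union of exons in GENCODE 29, and positions and upstream sequences are from RefSeq GRCh38.p14, with a window for 30 of the 38 members. Alternatives changed the tool (DESeq2, limma-voom, glmTreat at 1.5-fold), the scaling (upper-quartile, RLE, totals alone, LHX2 excluded), the filter (none, or 1 CPM in 3 libraries), the design (replicate block, 1 library omitted) or took out a loess fit on length and GC (span 0.3). The 4 count ratios were also chosen after values were seen. Members, sides, lists and the rule for named genes were chosen with earlier results of these data known. Named were all 38 members, the members that passed with each library's value, up to 4 changed genes of each other pathway list and the changed marker genes. CASP1, CASP5, FASLG, RIPK3, the changed hepatocyte markers and the motifs other than TAATTA were added after values were seen. So were AFP, FGB, PDGFRB, COL1A1, NFKBIA, NFKBIE, RELB, TNFAIP3 and TRAF1. Software was edgeR 4.0.16, DESeq2 1.42.0 and limma 3.58.1 in R 4.3.3, with matplotlib 3.10.9 and pandas 2.3.3 in Python 3.11.15.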

Additional observations from a re-analysis of the deposited data

How the results depend on the processing

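Counts of members that rose stayed between 8 and 10 in the alternatives other than the test against a 1.5-fold change, and the 9 genes named in the report passed in all of these. Against a 1.5-fold change (glmTreat) 253 genes were higher and 78 lower, 0 of 34 members were higher and 0 lower (2 higher and 0 lower at an unadjusted p under 0.05, BIRC3 and CASP4), which gave 0 proapoptotic and 0 antiapoptotic calls in each direction, and of other pathway genes 0 were higher and 1 lower. With DESeq2 9 members were higher and 5 lower. The replicate numbers are not said to pair the libraries. Correlations of same-numbered deviations were -0.195 to -0.056, and with 3 libraries a group they cannot decide whether pairs exist. With the replicate block 9 members were higher and 3 lower, with 3 proapoptotic and 0 antiapoptotic genes lower. CASP10 (-0.23, adjusted p = 0.089), FADD (-0.18, adjusted p = 0.052) and TNFRSF10D (-0.13, adjusted p = 0.071) did not pass there. TNFRSF10D, the antiapoptotic gene that fell, also did not pass with library totals alone or DESeq2, which left 0 lower. When libraries were left out in turn, 3 to 6 members fell, 3 to 5 proapoptotic genes fell, 3 to 5 antiapoptotic genes rose and 0 to 1 fell, and 6 to 9 other pathway genes rose (6 without control replicate 2 or 3). In the BCL2 family alone 2 antiapoptotic genes rose and 0 fell, and 1 proapoptotic gene fell. The antiapoptotic median log2 fold change was 0.12 once length and GC dependence was taken out and 0.14 to 0.24 with a library left out. Members that did not pass changed sign in some alternatives. With library totals alone BCL2L2 was at 0.0054 and PMAIP1 at 0.0031, and once length and GC dependence was taken out PMAIP1 was at 0.043 and CASP6 at 0.027. With a library left out BCL2L2 ranged from -0.063 to 0.017, PMAIP1 from -0.15 to 0.079, BBC3 from -0.15 to 0.25, CASP6 from -0.13 to 0.019 and TRADD from -0.39 to 0.050. The cause was not tested. BIRC3, HRK, BBC3 and BOK rest on few counts, and BCL2, BIK, FAS and BCL2A1 were under the filter on low counts.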
